A study of Mus musculus with 360 samples.

Results

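The 10 genes followed here act on bone mineral, as enzymes, inhibitors and matrix proteins, and they were measured in single sorted cells of 3 cranial sutures and of the tibial growth plate. They were Alpl, Phospho1, Phex, Enpp1, Ank, Mgp, Bglap, Bglap2, Fam20c and Slc20a2, taken by name out of 24015 genes in the deposited tables. All 10 were listed in every table. Cells carried the surface phenotype of skeletal stem/progenitor cells, positive for CD51 and CD200 and negative for 6C3, CD105, CD45, Ter119 and Tie2 as well as for Thy1.1 and Thy1.2, and are called CD51+;CD200+ cells. They passed 2 rounds of sorting and came from wild-type CD-1 mice at postnatal day 3 (pN3), and the labels give no treatment for any of them. The sutures were the posterior frontal, called PF, the sagittal, SAG, and the coronal, COR, and the tibial growth plate, GP, was the reference tissue. Neighbouring bone and membranes were dissected along with each suture, so the sorted cells need not all be of the suture itself. Cells of many mice were pooled before sorting and no label names an animal, so each tissue is 1 sample here, and its 2 plates, which need not come from separate animals, give the only spread.

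Mineral forms in bone when phosphate and calcium precipitate along collagen, and the reaction is held back by pyrophosphate and by inhibitory proteins. Alpl, the tissue-nonspecific alkaline phosphatase, cleaves pyrophosphate into phosphate, Phospho1 releases phosphate inside matrix vesicles, and Phex is a membrane peptidase of osteoblasts and osteocytes whose loss impairs mineralization. Enpp1 makes pyrophosphate from nucleotides, Ank lets it or its precursor ATP leave the cell, and Mgp is a matrix protein that hinders calcification of cartilage and arteries. Bglap and Bglap2 encode osteocalcin, a product of mature osteoblasts, Fam20c is the kinase that phosphorylates secreted matrix proteins, and Slc20a2 carries phosphate into cells.

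The osteocalcin genes have to be read with their sequences in view, since their transcripts are nearly the same. In NCBIM37, the assembly also known as mm9, Bglap lies on the minus strand at chr3:88187423-88188386 and Bglap2 on the same strand at chr3:88181658-88182621, with 4801 bases between the genes. The spliced coding sequences from the GENCODE transcripts of this build are given 5′ to 3′, each joined from the exons of its gene, and capitals mark the positions at which they differ.
Bglap: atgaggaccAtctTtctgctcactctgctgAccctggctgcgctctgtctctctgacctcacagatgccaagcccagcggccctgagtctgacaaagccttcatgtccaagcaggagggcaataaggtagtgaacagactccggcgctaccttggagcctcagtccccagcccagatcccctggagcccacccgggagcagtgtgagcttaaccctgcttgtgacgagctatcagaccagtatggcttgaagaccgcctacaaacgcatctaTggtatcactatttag
Bglap2: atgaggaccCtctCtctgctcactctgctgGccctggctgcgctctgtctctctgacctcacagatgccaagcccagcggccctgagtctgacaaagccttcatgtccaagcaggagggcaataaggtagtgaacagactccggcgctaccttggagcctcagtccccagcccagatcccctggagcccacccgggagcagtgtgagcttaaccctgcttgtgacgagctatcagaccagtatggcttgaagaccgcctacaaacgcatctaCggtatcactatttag
The coding sequences were 288 bases each and differed at 4 positions, giving 98.6% identity. Counted from 1 at the first base of the start codon, with the base of Bglap first, the differences were A10C, T14C, A31G and T273C. The first 3 of them fall in the part that encodes the signal peptide, and the run between the last pair was 241 bases without a difference. Of all 150-base windows of the Bglap transcript, 31.6% were found unchanged in the Bglap2 transcript, and of those of Bglap2 28.6% were found in Bglap. A sequencing read of 150 bases from such a window cannot be placed on 1 gene by itself. Bglap and Bglap2 are therefore given singly and as a sum. Exons of Phospho1 also overlap those of Abi3 on the other strand and of Zfp652 on the same strand, and exons of Slc20a2 overlap AI316807 on the other strand. The other 6 genes had no overlapping exons.

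In all, 325 of 360 cells passed the filter of at least 500 genes and 10000 reads, 87 from PF, 86 from SAG, 74 from COR and 78 from GP. Plates held between 4055444 and 78085277 reads over these cells, of which Rn45s, the ribosomal RNA precursor, took 20.2% to 31% on 7 plates and 86.8% on SAG plate 2. Levels are given as CPM, reads per 1000000 reads other than Rn45s, after summing the cells of a plate or tissue. SAG plate 2 stood apart, with a median of 875 genes per cell against 2111.5 to 3867 on the other plates, and results that use SAG are also given by plate or for SAG plate 1 alone. Of the osteoblast genes, Runx2 was highest on SAG plate 2, at 375 CPM against 45.3 to 125 CPM on the other 7 plates. Ibsp stood at 392 to 9086 CPM over the 8 plates. Other osteoblast genes were lowest on SAG plate 2, with Col1a1 at 13152 CPM there against 29167 to 112520 CPM on the other 7 plates, Col1a2 at 13787 against 21843 to 66256 CPM, Sparc at 18873 against 28522 to 47772 CPM, Sp7 at 1.84 against 11.7 to 574 CPM, and Pth1r at 0 against 28.5 to 421 CPM. Chondrocyte genes (Col2a1, Acan, Sox9, Col9a1, Col9a2, Col9a3, Matn3 and Hapln1) summed to 18760 and 13658 CPM on the SAG plates and 512 and 4467 CPM on the GP plates, against 129 to 333 CPM in PF and COR. The blood genes Ptprc, Laptm5, Cd52, Tyrobp and Coro1a summed to at most 19.7 CPM and the endothelial genes Pecam1, Cdh5, Kdr, Emcn and Tek to at most 25.6 CPM on any plate. The osteoclast genes Acp5, Ctsk, Mmp9 and Ocstamp summed to 7759 and 1997 CPM on the SAG plates and 453 to 1101 CPM elsewhere, with Ocstamp at 0 throughout, and the tendon genes Scx, Tnmd, Mkx and Thbs4 to 4561 and 2294 CPM on the GP plates and 78.9 to 400.2 CPM elsewhere. The smooth muscle and pericyte genes Acta2, Myh11, Tagln, Rgs5, Cspg4 and Notch3 summed to 2090 and 1925 CPM on the GP plates, 843 and 1012 CPM in PF, 216 and 573 CPM in COR, and 67.9 and 330 CPM in SAG. The hypertrophic cartilage genes Col10a1, Ihh and Mmp13 summed to 0 CPM on GP plate 1 and 545 to 8697 CPM elsewhere. Ihh was at 0 outside COR, and Col10a1 was at 0 in PF, in SAG, on COR plate 1 and on GP plate 1. The sums in PF and SAG are thus those of Mmp13 alone. The osteocyte genes Dmp1, Mepe, Sost, Fgf23 and Pdpn summed to 53 to 1828 CPM, with Sost at 0 throughout. Itgav and Cd200, which encode the antigens sorted for, were read in every tissue. A read of either was found in 19.6% of the cells of SAG plate 2 and in 61.8% to 87.5% on the other plates. Of the genes of antigens sorted against, Ptprc, Tek, Thy1, Enpep and Eng, 4 of 5 had reads in PF and COR and 2 of 5 in SAG and GP, summed to 16.9, 27.6, 55.1 and 5.7 CPM, in 14.9% of PF and COR cells, 10.5% of SAG cells and 5.13% of GP cells. Tek was the only one at 0 in every tissue.

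Alpl (chr4:137297648-137352299, minus strand) had the most reads of the promoters of mineral, and it was high in the PF and COR sutures. The plates of PF gave 1351 and 919.9 CPM, those of COR 1796 and 994 CPM, those of GP 317 and 491 CPM, and those of SAG 252 and 261 CPM. All 4 plates of PF and COR were above all 4 plates of GP and SAG, while PF and COR overlapped each other. Alpl was read in 75.9% of PF cells (95% exact binomial interval 65.5 to 84.4), 81.1% of COR cells (70.3 to 89.3), 51.3% of GP cells (39.7 to 62.8) and 15.1% of SAG cells (8.3 to 24.5). On SAG plate 1 the share was 20% (7.7 to 38.6), so the low share did not rest on plate 2. After each cell was thinned to 100000 reads other than Rn45s, the shares were 75.7% in PF, 78.9% in COR, 55.2% in GP, 16% on SAG plate 1 and 10.9% on SAG plate 2. Among cells with a read, the median level was 985 CPM in PF, 1118 CPM in COR, 553 CPM in GP and 807 CPM in SAG, or 374 CPM on SAG plate 1. In summed reads alone, fewer positive cells and less RNA per cell cannot be told apart. Reads were also unevenly spread, with 1 cell giving 72.3% of the Alpl reads of SAG plate 1 and 5.8% of those of COR. These intervals cover counting error only, and PCR copies without molecular identifiers are not independent molecules.

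Phospho1 (chr11:95685813-95693454, plus strand) was nearly absent at this depth. It had 16 reads in 2 PF cells and 3 reads in 2 COR cells. In SAG it was read in 0 of 86 cells, which by a limit of 3 cells allows reads in up to 3.49% of cells, or 10% on SAG plate 1 alone, and in GP in 0 of 78 cells, which allows up to 3.85%. The highest plate level was 2 CPM, on PF plate 1.

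Phex (chrX:153596618-153853244, minus strand) was rare. It was read in 4 of 87 PF cells, 3 of 86 SAG cells, 6 of 74 COR cells and 9 of 78 GP cells. Summed levels were 0 and 21.4 CPM on the PF plates, 7.4 and 42.7 CPM in SAG, 19.5 and 22.1 CPM in COR, and 37.6 and 29.1 CPM in GP. Only the GP plates stood clear of both PF and COR, and all of these levels rest on few cells, since 1 cell gave 39.95% to 77.6% of the Phex reads of each tissue. Single cells reached 378 CPM in PF, 795 CPM in COR, 3117 CPM in GP, and 2897 CPM in SAG, where the single positive cell of plate 1 had 88.9 CPM. Others were weak, and 4 of the 9 positive GP cells and 1 of the 6 in COR had under 10 reads.

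**Figure D1:**
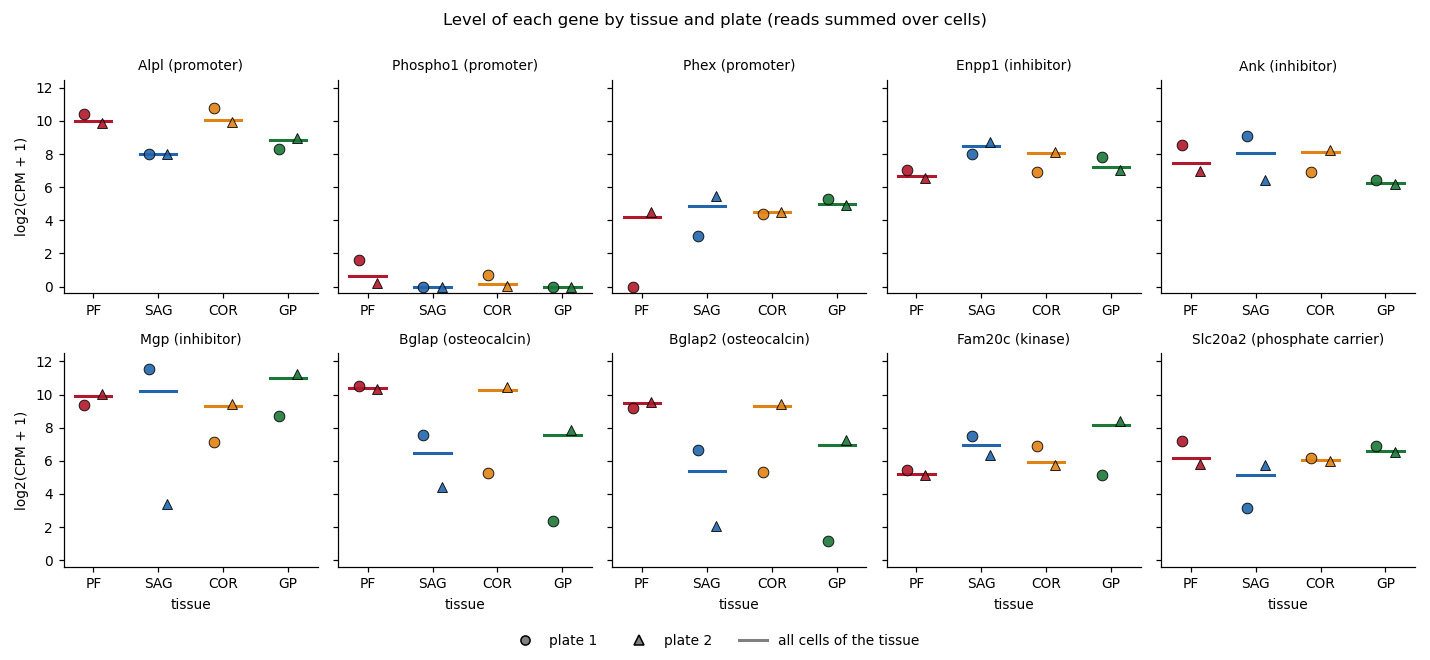
Each panel plots 1 gene, with log2(CPM + 1) on the vertical axis and the 4 tissues along the horizontal axis; circles are plate 1, triangles plate 2, and bars all cells of a tissue together. Alpl separates PF and COR from SAG and GP, whereas the SAG plates of Mgp lie far apart, at 2939 and 9.3 CPM.

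Of the pyrophosphate genes, Enpp1 did not follow Alpl. Ank was, like Alpl, lower in GP than in PF and COR, but it was not lowest in SAG. Enpp1 (chr10:24357720-24431965, minus strand) stood at 129 and 93.2 CPM on the PF plates, 256 and 417 CPM in SAG, 121 and 284 CPM in COR, and 224 and 131 CPM in GP. PF was the lowest tissue and its plates stayed below those of SAG and GP, but overlapped those of COR. PF plate 1 was all but level with GP plate 2. Enpp1 was read in 24.1% of PF cells, 20.9% of SAG cells, 36.5% of COR cells and 35.9% of GP cells, an order unlike that of the levels. In SAG a positive cell held a median of 947 CPM, or 696 CPM on plate 1, against 245 CPM in PF, 341 CPM in COR and 271 CPM in GP. Ank (chr15:27396432-27524664, plus strand) stood at 380.0 and 123 CPM in PF, 544 and 85.1 CPM in SAG, 118 and 303 CPM in COR, and 85.01 and 72.8 CPM in GP. GP was the only tissue whose plates were below every plate of the other tissues, although SAG plate 2 was all but level with GP plate 1. COR had the largest share of cells with Ank, 45.9% (34.3 to 57.9), and the shares in GP, PF and SAG were 30.8%, 23% and 16.3%, with 30% on SAG plate 1.

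Mgp (chr6:136820957-136824326, minus strand) had the highest CPM of the inhibitors in each tissue, though not on SAG plate 2, and its plates lay far apart. Its levels were 650.4 and 1041 CPM on the PF plates, 2939 and 9.3 CPM in SAG, 141 and 688 CPM in COR, and 414 and 2387 CPM in GP. The plates of one tissue differed by as much as tissues did, and no comparison of tissues separated them. SAG is the extreme case, since Mgp was read in 76.7% of the cells of plate 1 (57.7 to 90.1) and in 8.9% of those of plate 2 (3 to 19.6). SAG plate 2 also had few genes per cell, as given above, and the part of this in its low Mgp was not tested. Thinning to equal reads left the shares at 80% and 9.1%. With plate 1 standing for SAG, Mgp was 3.04-fold higher in SAG than in PF and 4.64-fold higher than in COR, with both plate comparisons of one sign each time. In GP 28.3% of the Mgp reads came from 1 cell, which reached 40451 CPM, and 10 of 78 cells gave 90% of the reads. The shares of cells with Mgp were closer together than the levels, at 59.8% in PF, 58.1% in COR and 75.6% in GP.

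Osteocalcin reads were a matter of a few cells. Bglap stood at 1443 and 1294 CPM on the PF plates, 188 and 20.1 CPM in SAG, 37.4 and 1389 CPM in COR, and 4 and 229 CPM in GP. PF was the only tissue whose plates gave like levels, and both lay above every SAG and GP plate. Bglap2 went the same way at a lower level, with 593 and 757 CPM in PF, 98.3 and 3.1 CPM in SAG, 39.5 and 688 CPM in COR, and 1.2 and 151 CPM in GP. A read of either gene was found in 26.4% of PF cells, 43.2% of COR cells, 21.8% of GP cells and 10.5% of SAG cells, or 16.7% on SAG plate 1. The share of positive cells on COR plate 1, 8 of 16, was no lower than on plate 2, 24 of 58, although its summed level was far lower. In COR 1 cell gave most of the reads of both genes together and 5 cells gave 90%. In PF 9 cells gave 90% of them, and in GP 2 cells. Without its top cell, Bglap went from 1252 to 623 CPM in COR and from 190.3 to 27.6 CPM in GP, and in PF from 1323 to 1009.8 CPM. Requiring at least 10 reads, a setting chosen after seeing the data, left Bglap in 20.7% of PF cells, 27% of COR cells, 12.8% of GP cells and 6.98% of SAG cells, or 10% on SAG plate 1.

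Bglap and Bglap2 were found in the same cells. Outside SAG plate 2, 77 of 269 cells had a read of either gene, 63 of them of both, 8 of Bglap alone and 6 of Bglap2 alone. Bglap took 60.4% of the pair's reads in GP, 64.6% in PF, 66.8% in COR and 68% in SAG, or 65.7% on SAG plate 1. Among the 35 of these cells with at least 100 reads of the pair, the share of Bglap ran from 8.7% to 82.6% with a median of 62%, so single cells departed widely from the pooled share. Over the 63 cells with both, Pearson's r of log2(CPM + 1) was 0.91, a description only. Given the identical stretches shown with the sequences, how far this agreement reflects reads that the counting could place on either gene was not tested. Bglap3, the third gene of the cluster, was listed at no more than 1.8 CPM on any plate.

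**Figure D2:**
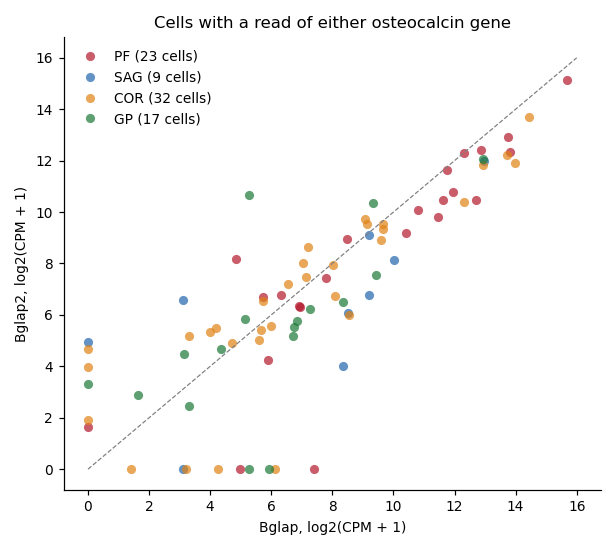
Each point is 1 cell with a read of Bglap or Bglap2, coloured by tissue, with log2(CPM + 1) of Bglap on the horizontal and of Bglap2 on the vertical axis; the dashed line marks equal values. Of the 63 cells with both genes outside SAG plate 2, 41 lie below the line, with more Bglap, and 22 above it, and cells on an axis had reads of 1 gene alone.

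Fam20c and Slc20a2 had moderate levels. Fam20c (chr5:139230468-139286031, plus strand) gave 42.3 and 33.7 CPM on the PF plates, 181 and 80.6 CPM in SAG, 119.8 and 51.8 CPM in COR, and 34.4 and 331 CPM in GP. Both PF plates were below both SAG plates and both COR plates, and the GP plates spanned nearly the whole range. Fam20c was read in 36% of SAG cells (26 to 47.1), 46.7% on plate 1 and 30.4% on plate 2, against 9.2% in PF, 16.2% in COR and 20.5% in GP. Over all SAG cells it was the only one of the 10 genes with a larger share of positive cells than in each other tissue. With SAG plate 1 alone Mgp also had a larger share there, 76.7% against 75.6% in GP and less in PF and COR. Slc20a2 (chr8:23587172-23680079, plus strand) gave 146 and 54.4 CPM in PF, 7.9 and 53.1 CPM in SAG, 72 and 63.4 CPM in COR, and 116 and 90.4 CPM in GP. Both SAG plates were below every other plate, plate 2 only just, and its share of cells was 8.1% in SAG and 6.67% on its plate 1, against 23% to 30.8% elsewhere.

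Levels of different genes can be compared only per length, so each CPM was divided by the exonic length of the gene in kilobases. On that scale Bglap led in PF with 2141 CPM per kb and in COR with 2027, and Mgp led in SAG with 1972 and in GP with 3419. Mgp in PF and COR came to 1614 and 1058 CPM per kb and Bglap2 to 1539 and 1322. Alpl stood at 267 in COR, 249 in PF, 114 in GP and 63.8 in SAG, where Ank was above it at 74.4, or at 151 against 62.4 on SAG plate 1. Ank ran from 20.8 in GP to 78.7 in COR, Fam20c from 8.37 in PF to 66.3 in GP, Slc20a2 from 9.60 in SAG to 26 in GP, and Enpp1 from 9.77 in PF to 34.4 in SAG. Phex stayed between 2.73 and 4.86 CPM per kb in every tissue, and Phospho1 at or below 0.245. On SAG plate 2 Mgp came to 15.5 CPM per kb, below Alpl at 64.8, so the lead of Mgp in SAG is that of plate 1, at 4914. The lead of Bglap in COR is that of plate 2, at 2248, since on COR plate 1 Alpl came to 445, Mgp to 236 and Bglap to 60.5 CPM per kb. Without its top cell Bglap came to 1009 CPM per kb in COR.

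Tissues were then compared gene by gene. A gene was called when its log2 ratio of (CPM + 1) was at least 1 in size and its sign was the same in all 4 pairings of plates from the 2 tissues. With 1 sample per tissue no test was possible, and the same rule was applied to 10686 genes with at least 10 CPM in any tissue, which gives the background. Phospho1 did not reach that level, so 9 of the 10 genes could be called.

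Between PF and COR 0 of 9 genes were called, against 11.9% of all genes tested. Alpl differed by -0.10 on the log2 scale (plate comparisons -0.96 to 0.44), and Bglap by 0.08 (-0.10 to 5.23). Enpp1 was 2.65-fold lower in PF, at 100.2 against 267 CPM, but the plates overlapped (-1.59 to 0.09). Fam20c was 1.64-fold lower in PF with all plate comparisons of one sign, short of the fold required. Leaving out a plate, which leaves fewer plate pairings to agree, changed this count. There were 4 genes without COR plate 2 (29.6% of all genes) and 2 without PF plate 2 (31.6%). Without PF plate 1 (23.4%) or COR plate 1 (19.2%), 1 gene was called.

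Between PF and SAG 6 of 9 genes were called, against 29.2% of all genes. Bglap2 was 17.2-fold, Bglap 15-fold, Alpl 3.89-fold and Slc20a2 2.03-fold higher in PF, while Enpp1 was 3.49-fold and Fam20c 3.35-fold higher in SAG. With Rn45s kept in the totals, which moved the median log2 ratio of all genes to 2.08, Enpp1 and Fam20c lost that direction, at log2 ratios of 0.07 and 0.11. Without Rn45s in the totals the median of all genes was 0.30, and relative to it Alpl differed by 1.66, Bglap by 3.60, Slc20a2 by 0.72, Enpp1 by -2.11 and Fam20c by -2.05. With SAG plate 1 alone the same 6 were called, with Alpl 3.98-fold, Bglap 6.996-fold and Bglap2 7.31-fold higher in PF, and with Enpp1 2.54-fold and Fam20c 5.02-fold higher in SAG. Slc20a2 was then 8.27-fold higher in PF, but it was not called without SAG plate 1, at a log2 ratio of 0.44, or without PF plate 1, at 0.62, and also not with TMM factors, the mean of CPM per cell or a pseudocount of 10 CPM, so that the call was lost in 5 of 15 alternatives. With SAG plate 1 alone Ank and Mgp joined them, 3.13-fold and 3.04-fold higher in SAG, and 33.2% of all genes were called in this setting.

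Between SAG and COR 1 of 9 genes was called, against 31.5% of all genes. Alpl was 4.16-fold lower in SAG, with plate comparisons from -2.83 to -1.92 on the log2 scale. With SAG plate 1 alone, Alpl remained called at 4.26-fold lower, and Phex at 2.71-fold and Slc20a2 at 7.37-fold lower in SAG and Mgp at 4.64-fold and Fam20c at 3.06-fold higher in SAG were called as well, with 31.8% of all genes. The count was 5 without SAG plate 1 (73.9% of all genes), 4 without COR plate 1 (43.8%) and 3 without COR plate 2 (46.1%). Osteocalcin stood at 1875 CPM in COR and 128 CPM in SAG for both genes summed, but was not called, because COR plate 1 had 76.9 CPM and SAG plate 1 had 287 CPM.

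Against GP, 4 of 9 genes were called in PF, all higher in PF, against 16.2% of all genes. They were Bglap at 6.92-fold, Bglap2 at 5.78-fold, Ank at 2.29-fold and Alpl at 2.18-fold. Without PF plate 1 neither Ank, at a log2 ratio of 0.70, nor Alpl, at 0.996, reached the fold. The call of Ank was lost in 3 of 15 alternatives, also with the mean of CPM per cell and without the top cell. On PF plate 1, 1 cell gave 50.7% of the Ank reads. Without GP plate 2, which held most GP cells, 7 genes were called, against 35.1% of all genes. In COR 2 of 9 genes were called, against 13.4%, with Ank 3.75-fold and Alpl 2.33-fold higher than in GP. Ank was no longer called without COR plate 2, at a log2 ratio of 0.65. For COR and GP, 4 genes were called without COR plate 1 (20.4% of all genes), GP plate 1 (21%) or GP plate 2 (33.7%). Enpp1, at 267 CPM in COR and 147 CPM in GP, was not called.

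Between SAG and GP 3 of 9 genes were called, against 30.7% of all genes. Enpp1 was 2.39-fold and Ank 3.55-fold higher in SAG, and Slc20a2 was 2.66-fold lower in SAG. With Rn45s kept in the totals Enpp1 lay on the other side, at a log2 ratio of -0.54, where the median of all genes was -1.95. With SAG plate 1 alone Ank was 7.18-fold higher and Slc20a2 10.8-fold lower in SAG, Phex was called as 3.75-fold lower, and Enpp1 was no longer called, at 1.74-fold, with 33.6% of all genes called. The call of Enpp1 held in 8 of 15 alternatives, and was lost as well with thinned cells, the mean of CPM per cell, the stricter cell filter, without the top cell and without GP plate 2. That of Ank held in 11 of 15, and was lost with Rn45s counted, TMM factors and no cell filter. Without SAG plate 1 neither Ank, at a log2 ratio of 0.18, nor Slc20a2, at -0.82, was called. The count was 6 without GP plate 1 (42.7% of all genes) and 5 without GP plate 2 (47.8%). Alpl was 1.79-fold lower in SAG with all plate comparisons of one sign, short of the fold required.

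**Figure D3:**
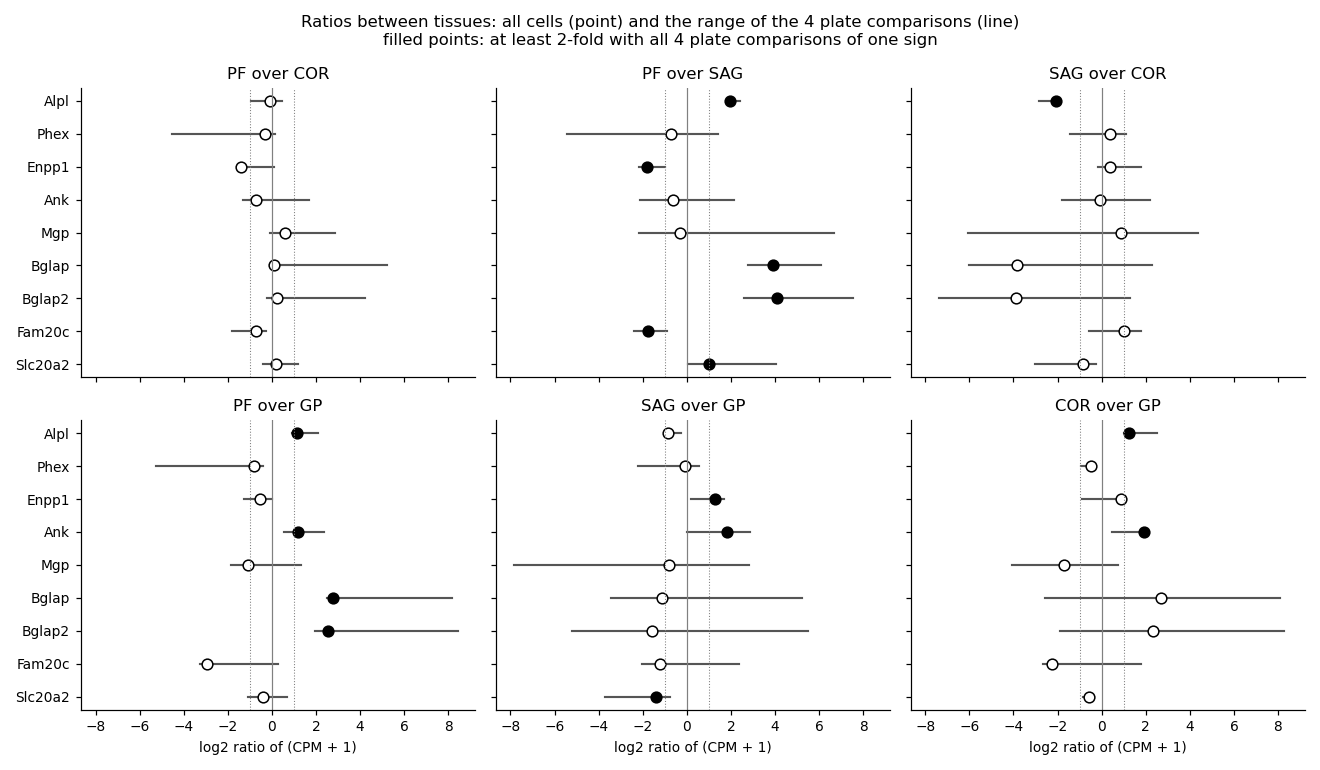
Each panel plots 1 comparison of tissues, with the log2 ratio of (CPM + 1) on the horizontal axis; the point is the ratio over all cells, the line spans the 4 plate comparisons, dotted lines mark 2-fold, and filled points are the called genes. Alpl lies clear of 0 in all comparisons but PF against COR, whereas Mgp and, outside PF against SAG and PF against GP, osteocalcin have lines that cross 0.

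The promoters Alpl, Phospho1 and Phex were then set against the inhibitors Enpp1, Ank and Mgp. The log2 ratio of their summed CPM was -0.28 in PF (0.22 and -0.42 on the plates), -0.11 in COR (2.26 and -0.33), -2.20 in GP (-1.02 and -2.31) and -2.65 in SAG (-3.84 and -0.75). Both PF plates and both COR plates lay above every plate of GP and SAG. Reads grow with the length of a transcript, so only differences of this ratio between tissues can be read and not its sign. Alpl gave 90.01% to 98.3% of the promoter CPM in each tissue, and Mgp gave 90.2% of the inhibitor CPM in GP, 77.9% in PF, 65.5% in SAG and 53.5% in COR. The order of the tissues rests mostly on this pair of genes. Without Mgp the ratio was 1.90 in PF, 1.14 in GP, 0.99 in COR and -1.12 in SAG, so that GP no longer stood below COR. On SAG plate 2 Mgp gave 1.8% of the inhibitor CPM, and Enpp1 and Ank the rest.

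Over single cells, most PF, COR and GP cells had reads of both kinds of gene, and most SAG cells did not. Both kinds were read in 54 of 87 PF cells and 52 of 74 COR cells, in 41 of 78 GP cells, and in 11 of 86 SAG cells. Only promoters were read in 12 PF, 12 COR, 3 GP and 5 SAG cells, and only inhibitors in 17 PF, 10 COR, 29 GP and 34 SAG cells. SAG plate 1, whose cells had gene numbers like those of the other tissues, still had 20 of 30 cells with inhibitors alone and 6 of 30 with both. On SAG plate 2 neither kind was read in 33 of 56 cells, against 0 of 74 in COR, 4 of 87 in PF and 5 of 78 in GP.

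**Figure D4:**
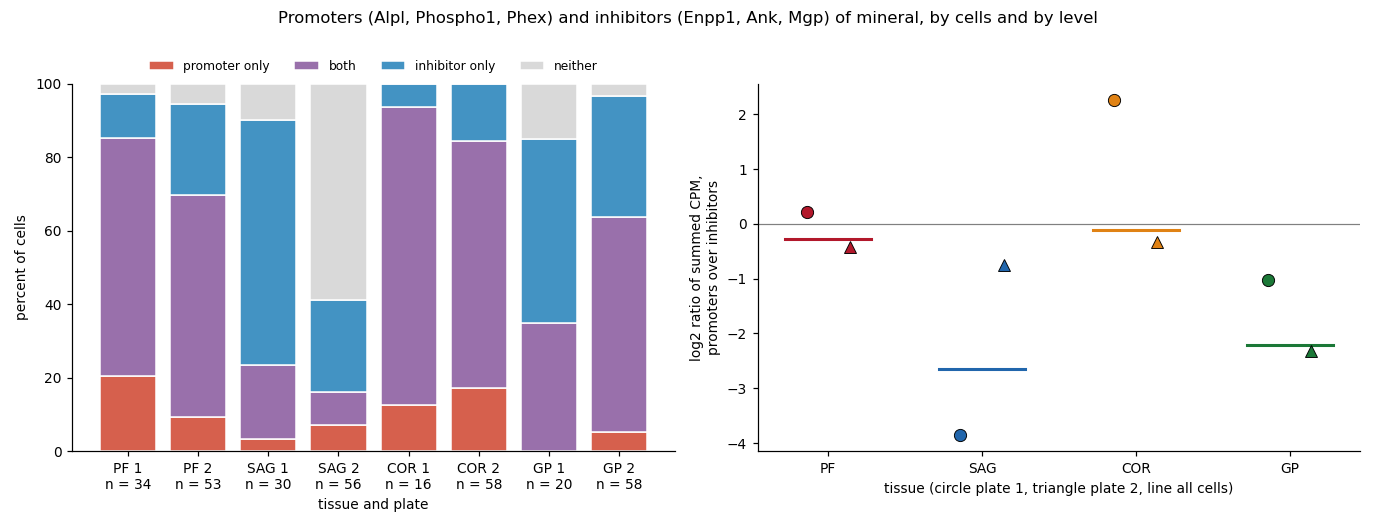
The left panel stacks the percent of cells of each plate with reads of promoters only, both, inhibitors only or neither, and the right panel plots the log2 ratio of summed CPM of promoters over inhibitors, with circles for plate 1, triangles for plate 2 and bars for the tissue. Cells with inhibitors alone make up 66.7% of SAG plate 1 and 50% of GP plate 1, against 6.25% of COR plate 1 (1 of 16 cells) and 11.8% of PF plate 1. On plate 2 they make up 25% in SAG, 32.8% in GP, 15.5% in COR and 24.5% in PF, so SAG and PF are level there.

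Osteocalcin was read less often in cells with Mgp than in cells without it. In PF, osteocalcin was read in 7.69% of the 52 cells with Mgp and in 54.3% of the 35 cells without it, with 5% against 57.1% on plate 1 and 9.38% against 52.4% on plate 2. In COR the shares were 32.6% of 43 and 58.1% of 31 cells, on SAG plate 1 4.35% of 23 and 57.1% of 7, and in GP 18.6% of 59 and 31.6% of 19. The direction was the same on 8 of 8 plates, with a weaker contrast in GP than in PF or COR. The GP plates had 2 and 15 positive cells. Thinning to 100000 reads gave 5.26% against 53.1% in PF, 22.5% against 58.1% in COR, 5% against 60% on SAG plate 1 and 17.3% against 20% in GP, so that in GP little of the contrast was left at equal depth. Of the 28 cells outside SAG plate 2 with at least 1000 CPM of osteocalcin, a minimum chosen after seeing the data, 2 had a read of Mgp, with at most 132 CPM. Of the 49 cells with less osteocalcin 28 had one, and of the 192 cells with none 147 had one. Spearman's rho between Mgp and Bglap over the 269 cells was -0.46, and it was -0.55 in PF, -0.39 in COR, -0.47 on SAG plate 1 and -0.26 in GP. These are descriptions, since cells share a plate, a pool of animals and a wide range of depth, with medians of 125830 to 511698 reads per cell among these plates.

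**Figure D5:**
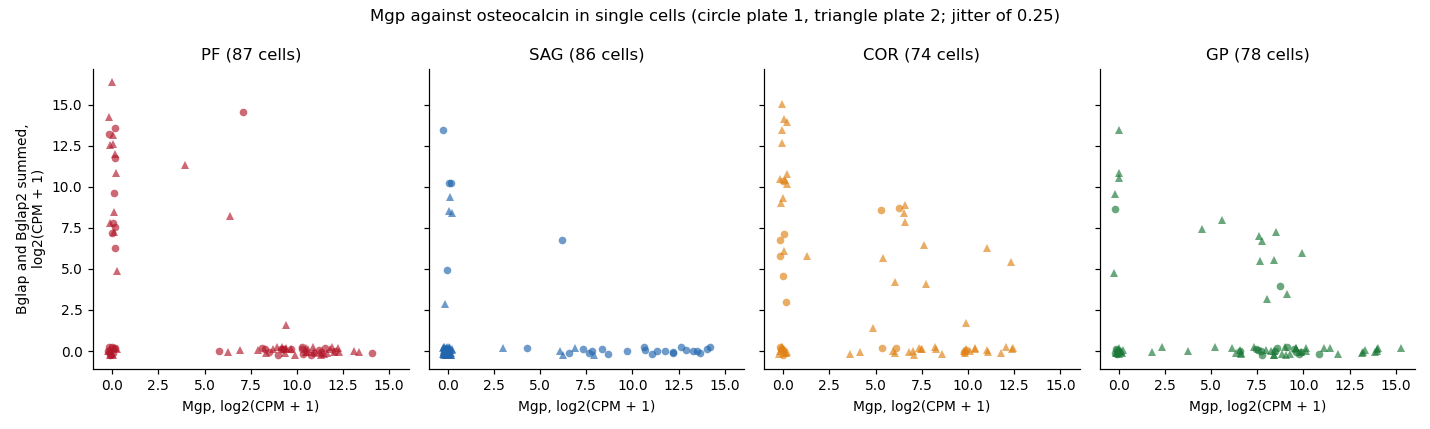
Each point is 1 cell, with log2(CPM + 1) of Mgp on the horizontal axis and of Bglap and Bglap2 summed on the vertical axis, in a panel for each tissue; circles are plate 1 and triangles plate 2, and points are spread by up to 0.25 to keep them apart. In PF 48 of 87 cells lie along the Mgp axis and 19 along the osteocalcin axis, and 4 had both, while in COR 14 of 74 and in GP 11 of 78 cells had both.

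Ank and Enpp1 were not on the side of Mgp in PF. In PF, cells with osteocalcin had 344 CPM of Ank against 84.6 CPM in the other cells, 212 against 42.5 CPM of Enpp1, 50.5 against 0 CPM of Phex and 34.7 against 1445 CPM of Mgp. On PF plate 1 the levels of Ank were closer, at 436 against 349 CPM, and Phex was at 0 CPM in both. Ank was read in 60.9% of the 23 PF cells with osteocalcin and in 9.38% of the 64 without, and Enpp1 in 43.5% and 17.2%, with the same order of the shares on both plates. In COR the levels were 528 against 136 CPM for Ank and 463 against 149 CPM for Enpp1, but Enpp1 was read in fewer of the cells with osteocalcin, 28.1% against 42.9%, and on COR plate 1 its levels were 120.1 and 122 CPM. On SAG plate 1, with 5 positive cells, Ank stood at 1118 against 367 CPM and Enpp1 at 697 against 120.1 CPM. GP gave 81.8 against 72.5 CPM of Ank and 76.9 against 170.5 CPM of Enpp1. Ank was read in 53.7% of the 82 cells with Enpp1 and in 23% of the 187 without, and the larger share fell to cells with Enpp1 on each plate. Alpl was read in 87% of the 77 cells with osteocalcin and in 54.7% of the other 192, but on PF plate 1 in 77.8% against 88% and on GP plate 1 in 0 of 2 against 5 of 18. Its level in PF was 1171 against 918 CPM, and 831 against 1632 CPM on plate 1.

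Ibsp, which encodes the bone sialoprotein of osteoblasts, was read in 69 of the 269 cells outside SAG plate 2, and these cells held nearly all of Phex. Phex was read in 26.1% of them and in 1% of the other 200 cells, at 81.6 against 0.32 CPM, and in PF in 14.8% of 27 against 0 of 60 cells. Ank (432 against 125 CPM), Enpp1 (316.5 against 129.9 CPM) and Fam20c (275 against 70.03 CPM) were higher in cells with Ibsp as well, although in GP Ank stood at 44.5 against 84.2 CPM and Enpp1 at 127 against 153 CPM. Mgp was read in 31.9% of cells with Ibsp and in 77.5% of those without. In GP, however, cells with Ibsp had 6135 CPM of Mgp against 782 CPM in the others, whereas in COR they had 25.2 against 810.3 CPM and in PF 105 against 1418 CPM. On SAG plate 1 it was 3133 against 2881 CPM, with 5 cells with Ibsp.

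Col2a1, the main collagen gene of cartilage, marked a set of cells that overlapped with those with Ibsp in GP. It was read in 22 of 30 cells of SAG plate 1 and 21 of 78 GP cells, but in 8 of 87 PF and 3 of 74 COR cells. On SAG plate 1 cells with Col2a1 had 4200 CPM of Mgp against 93.3 CPM in the others, 227 against 79.6 CPM of Fam20c, and 0.42 against 819 CPM of Alpl. In GP they had 5783 against 314 CPM of Mgp, 847 against 17.6 CPM of Fam20c and 319 against 526 CPM of Alpl. In GP 9 cells had reads of both Ibsp and Col2a1, and these gave 69.5% of the Mgp reads, 55.8% of those of Fam20c and 62.9% of those of Phex, and 1 of them gave 85.8% of those of Bglap. Outside GP, 1 cell of SAG plate 1, 1 of COR and 0 of PF had both. Most Mgp and Fam20c reads of SAG plate 1 and GP thus lay in cells with Col2a1, and the sums of the chondrocyte genes are given above by plate. On SAG plate 2 Col2a1 was read in 34 of 56 cells, and Fam20c stood at 128 CPM in these against 3.5 CPM in the others, but Mgp at 15 against 0 CPM. What part the share of cells with Col2a1 has in the differences between tissues was not tested.

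For each member read in at least 20% of the 269 cells outside SAG plate 2, the 3 genes with the most similar pattern were found among 8150 genes by Spearman's rho. Alpl was most like S1pr1 (0.51), Sp7 (0.50), the transcription factor of osteoblasts, and Panx3 (0.45). Bglap was most like Bglap2 (0.91), Ifitm5 (0.61), a membrane protein of osteoblasts, and Slc36a2 (0.55), and Bglap2 was most like Bglap, Ifitm5 (0.60) and Dapk2 (0.56). Within tissues the value for Bglap and Ifitm5 ran from 0.22 in GP to 0.88 in PF. Mgp was most like Itm2a (0.61), Igf1 (0.58) and Mfap4 (0.55), which stood at 0.77, 0.71 and 0.77 in PF and at 0.28, 0.28 and 0.22 in GP. Enpp1 was most like Ank (0.35), Spp1 (0.34) and Dmp1 (0.33), and Ank most like Dmp1 (0.37), Enpp1 (0.35) and Crip2 (0.34). Dmp1, read in 10% of the cells, stood at 0.49 with Enpp1 and 0.59 with Ank in PF, but at -0.01 and 0.13 in GP. For Slc20a2 the nearest genes were Gas6 (0.40, but -0.10 on SAG plate 1), Snap47 (0.33) and Arhgef25 (0.32), all weak in such sparse counts.

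Of 25 further genes of mineralization, 20 reached the level for a call. The number called, of 20, was 5 between PF and COR against 11.9% of all genes, 5 between PF and SAG against 29.2%, 7 between SAG and COR against 31.5%, 6 between PF and GP against 16.2%, 4 between SAG and GP against 30.7% and 6 between COR and GP against 13.4%. The comparisons with SAG were thus near or below the background. Between PF and COR 1 of them was called higher in PF, Dmp1, the acidic matrix protein of osteocytes, at 1385 against 537 CPM. These levels rest on few cells. Dmp1 was read in 34.8% of the 23 PF cells with osteocalcin and 3.13% of the other 64. In COR it was read in 18.8% of 32 and 4.76% of 42 cells. The 4 called lower in PF were Xpr1, Anxa2, Anxa5 and Fam20a. Anxa2 and Anxa5, annexins found in matrix vesicles, were at 1115 and 918 CPM in PF against 2538 and 2169 CPM in COR. Between PF and SAG 3 were called higher in PF, Dmp1, Sgms2 and Sp7, and 2 lower, Xpr1 and Runx2. Between SAG and COR 1 was called higher in SAG, Fam20b, at 406 against 42 CPM, and 6 lower, Anxa2, Anxa5, Spp1, Dmp1, Mepe and Sp7. With SAG plate 1 alone 19 of the 25 reached the level, and PF had Smpd3, Sgms2 and Dmp1 higher and Xpr1 and Nt5e lower than SAG, while SAG had Nt5e higher and Anxa2, Fam20a, Dmp1 and Mepe lower than COR. Against GP, Smpd3, which breaks down sphingomyelin for mineral deposition, was called higher in each of the sutures, at 206 CPM in PF, 159.9 CPM in SAG and 93.4 CPM in COR against 32.3 CPM. Dmp1, Sgms2 and Sp7 were called higher than in GP in PF and in COR, with Mepe in COR only by this rule, and Nt5e, which makes adenosine, was called lower in both. Fam20a was also called lower in PF than in GP, and in SAG Xpr1 and Runx2 were called higher and Anxa2 lower. With SAG plate 1 alone the calls against GP were Xpr1, Dmp1 and Sp7 higher and Fam20a lower in SAG, so Smpd3, at 46.3 CPM on that plate, was not among them. Spp1, which encodes osteopontin, was at 29962 CPM in PF, 11813 CPM in SAG, 50844 CPM in COR and 32423 CPM in GP. It was called in 1 comparison, SAG against COR, with plate comparisons from -8.35 to -0.70 on the log2 scale. With SAG plate 1 alone Spp1 was not called there. Ibsp ran from 1234 CPM in PF to 1878 CPM in COR and was called nowhere. The Fam20b call rested on SAG plate 2, with 640.2 CPM there and 53.7 CPM on SAG plate 1. So did the calls of Runx2 in SAG, with 375 CPM on plate 2 and 97.3 CPM on plate 1.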

How the data were processed

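Single CD51+;CD200+ cells of pooled pN3 CD-1 mice were sorted into plates and sequenced as full-length cDNA (SMART-seq2, paired ends of 150 bases, no molecular identifiers). The deposited tables hold raw read counts per gene and cell, which the authors made with STAR 2.5.3a and HTSeq on mm9. The submitters' notes also name Seurat 2.3.0 and R 3.4.4. The annotation and the strand setting are not given in the sources used here, so reads of overlapping genes cannot be assigned by strand. The 8 tables hold 360 cells, of which 325 with at least 500 genes and 10000 reads were kept. No cells shared identical values, although 112 well names recur between tissues. The labels of 1 cell conflict (SAG by title, PF by description), and it was kept as SAG.

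Counts were summed per tissue and plate and divided by reads other than Rn45s, which took up to 86.8% of a plate. Log2 ratios used a pseudocount of 1 CPM. No test was made, since each tissue is 1 sample, so no p-values are given. Genes called were at least 2-fold apart with all 4 plate comparisons of one sign, among genes of at least 10 CPM in any tissue. Cells were thinned to 100000 reads where shares of cells were compared, leaving out shallower ones, 17 in PF, 11 in GP, 6 in SAG and 3 in COR. Doublets were not called. The genes named were the 10 members, the listed further genes that were called, Ibsp and Spp1, and, for each member read in at least 20% of cells, the 3 genes with the highest Spearman's rho. Osteocalcin sequences came from GENCODE M1 on NCBIM37. The members and all gene lists were chosen with earlier results of these data known. Python 3.11.15, numpy 2.4.6, pandas 2.3.3, scipy 1.17.1 and edgeR 4.0.16 (TMM factors, in R 4.3.3) were used. Alternatives changed the scaling, cell filter, pseudocount, minimum level, fold and plates. The summed level of the osteoblast marker list is not reported here.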

Additional observations from a re-analysis of the deposited data

How the results depend on the processing

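Of 378 recomputed values, 324 were classed as unchanged, 21 lost a call, 29 moved further and 4 turned. A ratio was unchanged when it kept its direction and call, and a balance when it moved by less than the spread between plates. A count of members called was unchanged when it stayed close to the main count, so single calls could still be gained or lost. For PF against SAG, counts of 5 and 8 against 6 were classed as unchanged. No paired analysis was possible because no result comes from a test and plate numbers do not mark shared animals. The calls of Alpl in PF or COR against SAG and in COR against GP, and of Bglap and Bglap2 in PF against SAG or GP, held in all 15 alternatives each. Counting Rn45s turned Enpp1 (0.074) and Fam20c (0.11) between PF and SAG and Enpp1 between SAG and GP (-0.54), as its share differs between plates. With Rn45s counted 1 member was called between PF and COR (11.3% of all genes) and 3 between SAG and COR (32.7%). Under the stricter cell filter, which leaves 0 cells of SAG plate 2, these were 1 (11.7%) and 5 (32.1%). Between PF and COR 2 members were called with the mean of CPM per cell (15.8%) and 1 with thinned cells (14.6%). With no fold required 1 was called between PF and COR (31.2%), 2 between SAG and COR (37.9%) and 4 between COR and GP (35.3%). Without the top cell 1 was called between PF and COR (14.9%) and 2 between SAG and COR (40.7%). Without Mgp the balance was 1.90 in PF and turned to 1.14 in GP. Leaving out plates in turn gave 1 to 4 members between PF and COR (19.2% to 31.6% of all genes). It gave 5 to 8 between PF and SAG (33.2% to 72.8%) and 3 to 5 between SAG and COR (31.8% to 73.9%). Against GP it gave 3 to 7 in PF (23.6% to 35.5%) and 2 to 6 in SAG (33.6% to 74%). In COR against GP it gave 2 to 4 (20.4% to 33.7%). Balances then ran -3.84 to -0.75 in SAG, -2.31 to -1.02 in GP, -0.42 to 0.22 in PF and -0.33 to 2.26 in COR. The causes of these changes were not tested beyond what each alternative removes. Plates of 16 to 58 cells limit every share, and genes read in few cells, such as Phospho1 and Phex, cannot be ranked between tissues at this depth. The share of cells with at least 10 reads and the minimum of 1000 CPM for osteocalcin were chosen after seeing the data.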
